A study of Mus musculus with 12 samples.

Results

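The normal mammary gland was measured by RNA-seq in 3 of the 12 samples of the series, the samples labelled as normal mammary gland tissue, and all 3 were used. The mice were wild-type FVB females of 12 weeks, and every replicate was a pool of abdominal and inguinal glands taken from 3 of them. The group set beside them was 3 untreated tumors of the thoracic glands of female MMTV-PyVT mice of 12 weeks, FVB mice in which the mouse mammary tumor virus promoter drives the polyoma virus middle T antigen in mammary epithelium, with 1 mouse per replicate. All tumor mice carried the transgene in the heterozygous state. Normal and tumor samples thus differed in tissue, in the glands they came from and in how many mice made up a sample, and what each of these contributes cannot be told apart. The other 6 samples, tumors of DMSO- or C646-treated mice, were not used. Values are given in the order of replicate 1, 2 and 3 throughout.

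The mammary gland of an adult mouse that is not nursing is a tree of epithelial ducts set in a pad of fat. The ducts have an inner layer of luminal cells, among them cells that carry the receptors for estrogen and progesterone and cells that can go on to make milk, and an outer layer of contractile basal cells. The fat pad holds adipocytes, fibroblasts, vessels and nerves, and the pad of the abdominal and inguinal glands also encloses a lymph node. RNA of whole tissue is therefore a sum over all these cells, in which fewer cells of a type and less RNA per cell cannot be told apart.

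The values are FPKM, the sequenced fragments of a gene scaled to its length and to all mapped fragments of the sample, so that levels can be set side by side between genes. Of 23704 named genes, 12227 reached 1 FPKM in all 3 normal samples, 6338 reached 10 FPKM and 761 reached 100 FPKM, while 6316 were listed at 0 in all 3. The study's methods name a sequencing depth that was the same for every library, but no count of reads comes with the values, so the depth each file reached is unknown. The steps between the lowest values put replicate 3 at 1.18 times the depth of replicate 1, with 33.5% of the ratios at that step, and gave no clear step for replicate 2. Of the 12720 genes with a mean of at least 1 FPKM, 3175 were highest in replicate 1, 5554 in replicate 2 and 3991 in replicate 3, and 4694 were lowest in replicate 1, 3543 in replicate 2 and 4483 in replicate 3, which is the background for the counts of highest and lowest samples given below. The summed FPKM of named genes was 525515, 611249 and 544992, and the order of samples given for a gene is not corrected for this. Genes were grouped in 30 lists of cell type and cell state markers. Of these lists, 18 make up a fat, a lymphoid, an epithelial and a stromal component. Of their members 50 of 52 fat genes, 62 of 63 lymphoid genes, 54 of 59 epithelial genes and 64 of 66 stromal genes reached 1 FPKM in every normal sample, so the defining markers of the labelled tissue, both of its ducts and of its fat pad, were present.

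Genes of fat cells were the most abundant messages of the normal gland. Fabp4, the fatty acid carrier protein of adipocytes, was the highest of all genes at 13737, 17617 and 16228 FPKM and held 2.82% of all summed FPKM of named genes. Cfd, which encodes the adipocyte-secreted protease adipsin, followed at 8523, 10408 and 8868 FPKM. Car3, a carbonic anhydrase abundant in adipocytes, reached 5503, 6412 and 6265 FPKM. In these 3 genes the lowest sample of the higher gene lay above the highest sample of the next, so their order held in every replicate. Scd1, the desaturase that makes monounsaturated fatty acids, was next at 4529, 5036 and 4821 FPKM, and all its samples also lay below those of Car3 and above those of the gene that followed. That gene was Thrsp, a regulator of lipid synthesis induced by thyroid hormone, at 2772, 3588 and 3619 FPKM. From Thrsp downward the ranges of neighbouring genes among the 25 overlapped, except those of Tmsb4x and Fth1 at ranks 12 and 13. By the RefSeq coordinates of these genes in mm10 (GRCm38), Fabp4 lies at chr3:10204342-10208616, Cfd at chr10:79890853-79892655, Car3 at chr3:14863538-14872381, Scd1 at chr19:44394450-44407709 and Thrsp at chr7:97412933-97417550.

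The other 20 of the 25 most abundant genes were mostly those that every cell uses. They held 7 ribosomal protein genes, led by Rpl41 at 3232, 3656 and 2334 FPKM, and Eef1a1, the translation elongation factor, at 2994, 3322 and 3121 FPKM. In each of the 7 ribosomal protein genes replicate 2 was the highest and replicate 3 the lowest. Cox4i1 at 1514, 2221 and 1825 FPKM and Cox8a at 1528, 1913 and 1806 FPKM encode subunits of cytochrome oxidase, the last complex of the respiratory chain. Fth1, Tmsb4x, Tpt1, Aldoa and Dbi, for iron storage, actin binding, growth, glycolysis and the binding of acyl-CoA, lay between 1653 and 2825 FPKM. Apoe, a lipid carrier made by macrophages and adipocytes among others, stood at 2488, 3437 and 2471 FPKM, and Gsn, the actin-severing protein gelsolin, at 1719, 2594 and 1856 FPKM. B2m and the joined row of H2-D1 and H2-L, the light and heavy chains of MHC class I, reached 1869, 2455 and 2154 FPKM and 1793, 2327 and 1771 FPKM, and the last 2 names share their row, so their parts are uncertain. Ifi27l2a, an interferon-inducible gene, was the least even of the 25, with 1413, 2438 and 1408 FPKM, and replicate 2 stood apart from the other replicates.

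**Figure D1:**
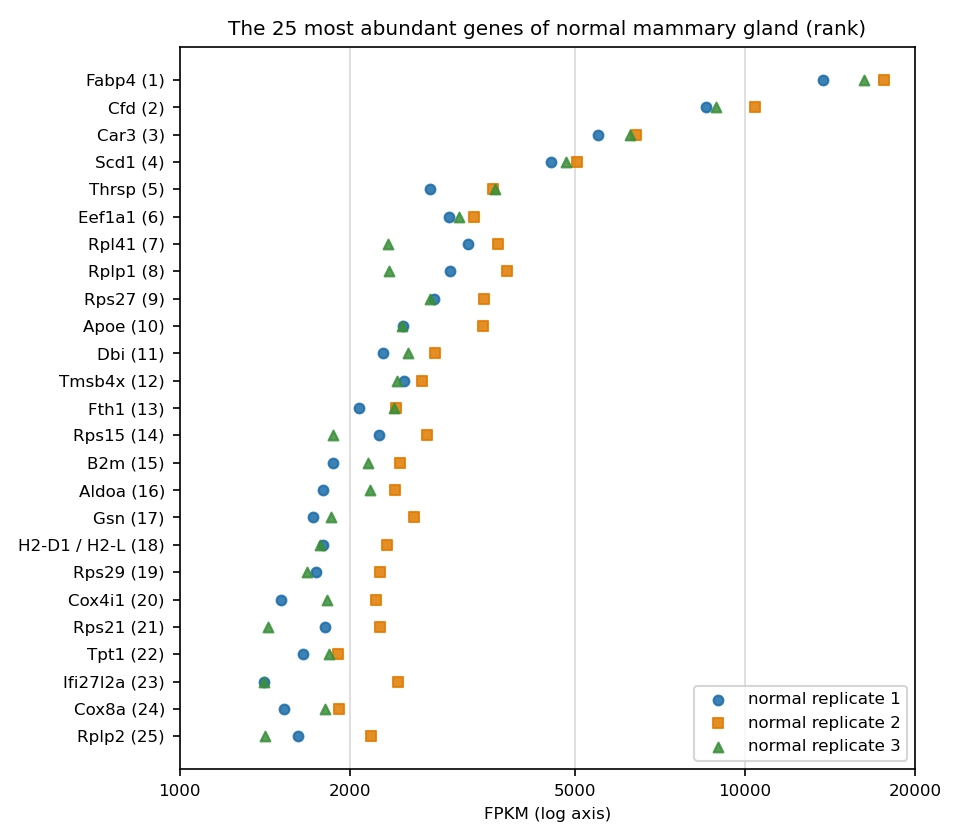
FPKM on a log axis of the 25 genes with the highest mean in normal mammary gland, with their rank, and 1 point per normal replicate. Fabp4, Cfd, Car3 and Scd1 occupy separate ranges, and from Thrsp at rank 5 downward the ranges of neighbouring genes overlap except those of Tmsb4x and Fth1.

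The 10 most abundant genes held 9.69% ± 0.248 (SD, n = 3) of the summed FPKM of named genes, the 50 most abundant 21.7% ± 0.989 (SD, n = 3) and the 100 most abundant 30.8% ± 1.26 (SD, n = 3). Among the 100, 44 encoded ribosomal proteins, 14 subunits of the respiratory chain and ATP synthase, 8 were in the white adipocyte list and 4 in the list of fatty acid synthesis. The 78 ribosomal protein genes together made up 14.3, 14.4 and 12.1% in the 3 replicates, and the 85 genes of oxidative phosphorylation 6.12, 7.55 and 7.36%. The fat component held 10.5% ± 0.747 (SD, n = 3), against 1.22% ± 0.0414 (SD, n = 3) for the stromal component, 0.458% ± 0.0393 (SD, n = 3) for the lymphoid component and 0.381% ± 0.148 (SD, n = 3) for the epithelial component. The epithelial share was the least even, at 0.522, 0.227 and 0.394% in the 3 replicates, and overlapped the lymphoid share of 0.429, 0.503 and 0.442%. Such shares depend on which genes were put on each list, and describe RNA and not cells.

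All 24 white adipocyte genes were above 20 FPKM in every normal sample, and the list's median was 449.7, 548 and 541 FPKM. Beside Fabp4, Cfd and Car3, Gpd1, the glycerol-phosphate dehydrogenase that feeds triglyceride synthesis, reached 1129, 1887 and 1656 FPKM. Adipoq, the adipocyte hormone adiponectin, lay at 1207, 1517 and 1401 FPKM, Plin1, the coat protein of lipid droplets, at 448, 590.2 and 471 FPKM, and Lep, the hormone leptin, at 61.1, 83.7 and 68.7 FPKM. Replicate 1 was the lowest in all of these, and in 23 of the 24 white adipocyte genes. The least abundant of the list was Aqp7, the glycerol channel of adipocytes, at 26.0, 31.1 and 26.6 FPKM. None of the 24 genes was 2-fold apart between the normal samples, against 2.58% of the 9324 genes with a mean of at least 5 FPKM.

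The genes of fatty acid synthesis were abundant too. Fasn, fatty acid synthase, stood at 1376, 1483 and 1923 FPKM and Dgat2, which completes triglycerides, at 864, 1177 and 996 FPKM. The list's median over its 12 genes was 331, 366 and 431 FPKM, lowest in replicate 1 and highest in replicate 3. Replicate 1 was the lowest of the 3 in all 12 genes, and replicate 3 the highest in 10. Srebf1, a transcription factor of lipid synthesis, lay at 109, 117 and 119.5 FPKM, read from a row that it shares with Mir6922.

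Markers of brown fat, the heat-producing adipocytes rich in mitochondria, were present beside those of white fat. Ucp1, the uncoupling protein that turns the proton gradient into heat and defines brown and beige adipocytes, reached 386, 901 and 663 FPKM and ranked 125. Cidea, a lipid droplet protein of brown adipocytes, reached 351, 710.4 and 705 FPKM. The muscle- and brown-fat-type subunits of cytochrome oxidase, Cox8b and Cox7a1, lay at 1036, 2304 and 1521 FPKM and at 217, 618 and 434 FPKM. In each of these 4 genes replicate 1 was the lowest and replicate 2 the highest, and Ucp1 was 2.33 times and Cox7a1 2.85 times as high in replicate 2 as in replicate 1. Over the 16 genes of the list, 14 reached 1 FPKM in all 3 samples, and all 14 were lowest in replicate 1. Zic1, a transcription factor that marks the classical brown fat between the shoulder blades, was listed at 0 in all 3 samples, and Lhx8, another marker of classical brown fat, stood at 0.612, 1.28 and 0.891 FPKM. Prdm16 and Ppargc1a, regulators of the brown fat program, were low at 1.25, 1.96 and 1.80 FPKM and 1.35, 1.42 and 2.09 FPKM. The brown fat list held 0.423, 0.816 and 0.685% of summed FPKM in the 3 replicates, against 7.09, 7.70 and 7.91% for the white adipocyte list.

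The promoters of Adipoq, a gene of white and brown adipocytes alike, and of Ucp1, the gene that sets brown fat apart, are shown as single examples. A different motif was marked in each, so the marks do not compare the promoters. They are the 150 bases before the start site in the RefSeq promoter table of GRCm38.p6, read 5′ to 3′ on the strand of the gene, Adipoq from chr16:23146386-23146535 on the plus strand and Ucp1 from chr8:83290198-83290347 on the plus strand. Capitals mark matches on either strand to CCAAT in Adipoq, the letters bound by NF-Y, and to TATANA in Ucp1, the core of a TATA box.
Adipoq: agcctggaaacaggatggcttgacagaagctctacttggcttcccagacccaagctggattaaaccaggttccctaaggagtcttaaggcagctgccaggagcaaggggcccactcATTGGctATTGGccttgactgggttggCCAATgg
Ucp1: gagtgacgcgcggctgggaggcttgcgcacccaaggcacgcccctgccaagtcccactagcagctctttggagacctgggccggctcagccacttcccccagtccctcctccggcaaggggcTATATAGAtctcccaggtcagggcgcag
Adipoq held 3 matches to CCAAT, at -34 to -30, -27 to -23 and -7 to -3 from the start site. Ucp1 held 2 overlapping matches to TATANA, at -28 to -23 and -26 to -21. Of the 32851 promoters of the table, 33.8% held CCAAT and 22.6% held TATANA within the 250 bases before the start site, so both motifs are common. A match describes the letters and is no evidence of a bound factor.

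A lymphoid component was present in all 3 normal samples, with genes of B cells, T cells and lymph node vessels. All 18 B cell genes reached 1 FPKM in every sample, with a median of 21.9, 23.6 and 21.4 FPKM. Cd79a and Cd79b, the signalling chains of the B cell receptor, lay at 82.5, 112 and 86.9 FPKM and 83.9, 108 and 81.2 FPKM, and Cd37, a tetraspanin of mature B cells, at 98.0, 144 and 98.2 FPKM. Ms4a1, a surface protein that defines B cells, was at 24.4, 29.7 and 26.7 FPKM. These genes differed by less than 1.5-fold between the normal samples, and each was highest in replicate 2, as were 16 of the 18 B cell genes. Fcmr, the receptor for IgM, stood at 32.3, 45.0 and 36.6 FPKM.

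T cell genes lay in the same range, and all 24 reached 1 FPKM in every sample, with a median of 21.3, 26.7 and 18.5 FPKM. Cd3g, a chain of the T cell receptor complex, stood at 75.0, 106 and 77.3 FPKM. Lck and Lat, a kinase and an adaptor of T cell receptor signalling, reached 65.9, 89.1 and 71.0 FPKM and 63.7, 82.4 and 62.8 FPKM, the former from a row shared with Mir8119. Tcf7, a transcription factor of naive T cells, lay at 65.4, 76.1 and 62.8 FPKM. Cd4 and Cd8b1, markers of helper and cytotoxic T cells, were at 31.8, 43.4 and 32.5 FPKM and 27.2, 44.1 and 30.1 FPKM. Replicate 2 was the highest in 21 of the 24 T cell genes.

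Genes of plasma cells and natural killer cells were lower. Mzb1 and Jchain, which help plasma cells to assemble antibodies, lay at 14.7, 33.5 and 13.7 FPKM and 12.2, 21.9 and 9.46 FPKM, with replicate 2 above the others, and Irf4 and Derl3 at 8.41, 8.45 and 6.73 FPKM and 1.57, 1.99 and 1.42 FPKM. Nkg7, a granule protein of cytotoxic cells, stood at 18.6, 33.0 and 22.6 FPKM, while Klrd1, Prf1 and Gzma were between 2 and 6 FPKM. Glycam1, a ligand for lymphocyte homing made by the high endothelial venules of lymph nodes and also secreted by milk-producing mammary cells, ranked 68 with 908, 1294 and 1053 FPKM. Cxcl13, the chemokine that draws B cells into follicles, was at 64.3, 78.1 and 71.1 FPKM, Ccl19, which draws T cells, at 6.74, 10.3 and 4.67 FPKM and Fut7, an enzyme of the homing ligands, at 4.24, 4.88 and 3.71 FPKM. All 6 genes of lymph node stroma found in the files were highest in replicate 2, and of the 62 lymphoid genes with a mean of at least 1 FPKM 52 were.

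Epithelial genes were present at moderate levels and set replicate 1 apart. The keratins of luminal and simple epithelia Krt19, Krt18 and Krt8 lay at 269.9, 118 and 150.003 FPKM, 227, 119 and 134 FPKM and 161, 70.0 and 88.0 FPKM. Spint2, an inhibitor of membrane proteases, stood at 198, 121 and 116 FPKM, and Epcam, the epithelial adhesion molecule, at 147, 68.2 and 98.7 FPKM. All 19 pan-epithelial genes were highest in replicate 1, and 14 of the 19 were lowest in replicate 2. The list's median was 38.0, 21.2 and 24.7 FPKM, and its median deviation from the mean of the samples, taken relative to all genes, was 0.52, -0.47 and -0.12 on the log2 scale. Over all genes with a mean of at least 1 FPKM, the median deviations were -0.03, 0.04 and -0.01, close to 0.

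Both layers of the ducts were seen. Krt5 and Krt14, the keratins of basal cells, lay at 63.3, 27.7 and 30.9 FPKM and 49.1, 26.4 and 31.0 FPKM, Lamb3, a chain of the laminin of basement membranes, at 30.4, 23.6 and 20.1 FPKM and Oxtr, the oxytocin receptor through which basal cells contract, at 27.2, 15.1 and 22.5 FPKM. The 12 basal genes together stood at 0.187, 0.183 and 0.184 of the summed FPKM of the pan-epithelial genes, which was 1452, 750 and 883. This ratio of sums hardly moved, but single basal genes did not all keep it. Krt15, a further keratin of basal cells, fell more steeply than the pan-epithelial sum, at 42.0, 11.1 and 9.99 FPKM, while Lamb3 moved less. The smooth muscle proteins that basal cells share with vessel walls did not keep a level ratio of sums, with 0.326, 0.459 and 0.496 for the contractile list. Nor did the hormone-sensing list, at 0.127, 0.177 and 0.158, or the luminal progenitor list, at 0.146, 0.228 and 0.271. Single genes weigh heavily in such sums, and Lcn2 alone made up most of the progenitor sum of 212, 171 and 239 FPKM. Hormone-sensing luminal cells were represented by Cited1, a co-activator in these cells, at 74.8, 58.5 and 55.1 FPKM, Gata3, a transcription factor of luminal cells, at 24.3, 15.6 and 18.9 FPKM, and Areg and Calca, which encode the growth factor amphiregulin and calcitonin, at 19.5, 20.1 and 11.9 FPKM and 26.4, 12.2 and 13.9 FPKM. The hormone receptors of these cells were lower, with Esr1 at 7.54, 6.43 and 8.65 FPKM and Pgr at 1.10, 0.820 and 1.06 FPKM, and Greb1, an estrogen-responsive gene, was under 1 FPKM at 0.142, 0.186 and 0.0327 FPKM. Of the progenitor genes, Lcn2 and Ltf, secreted iron-binding proteins, lay at 119, 98.9 and 135 FPKM and 24.7, 28.6 and 41.6 FPKM, and Elf5, the transcription factor of alveolar cells, at 31.2, 12.7 and 27.7 FPKM. Aldh1a3, in a row that it shares with Lrrk1, stood at 14.4, 17.0 and 13.6 FPKM.

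Milk protein genes were transcribed in the glands of these wild-type females, and their median deviation of 0.69, -1.43 and 1.08 on the log2 scale was the widest of the 18 lists of the 4 components. Csn2, the beta-casein gene, was at 273, 18.2 and 233 FPKM, Csn1s1 at 100.3, 24.2 and 105 FPKM and Csn1s2a, both alpha-caseins, at 98.3, 5.64 and 72.1 FPKM. In all 3 genes replicate 2 stood far below the other replicates, and the highest sample was 15.0 times the lowest in Csn2, 4.36 times in Csn1s1 and 17.3 times in Csn1s2a. Csn3, kappa-casein, did not share this pattern, with 130.5, 122 and 231 FPKM, and Lalba, the alpha-lactalbumin that makes lactose synthesis possible, was highest in replicate 3 at 7.59, 12.2 and 53.8 FPKM. Wap, the whey acidic protein, was low at 2.62, 0 and 0.950 FPKM, and Csn1s2b and Olah, a further casein and an enzyme that shortens milk fatty acids, were under 1 FPKM in all 3. The summed FPKM of the milk genes was 0.428, 0.260 and 0.820 times that of the pan-epithelial genes, and so was lowest in replicate 2 and highest in replicate 3 also relative to the amount of epithelial message.

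The promoters of Csn2, Csn1s1 and Csn1s2a are shown because these genes shared a low replicate 2, and that of Lalba because it did not. By their RefSeq coordinates in mm10 (GRCm38), Csn1s1 and Csn2 lie close together at chr5:87666208-87682578 and chr5:87692619-87699429, with Csn1s2a at chr5:87774450-87788798 on the same chromosome. Lalba lies at chr15:98480400-98482934, an interval that reaches beyond the start site used in the RefSeq promoter table. The 150 bases before each start site were taken from the same RefSeq promoter table at chr5:87699426-87699575 on the minus strand, chr5:87666058-87666207 and chr5:87774300-87774449 on the plus strand and chr15:98482684-98482833 on the minus strand. Capitals mark matches to TTCNNNGAA, which reads the same on both strands and is the form bound by STAT5, the factor through which prolactin turns on milk genes.
Csn2: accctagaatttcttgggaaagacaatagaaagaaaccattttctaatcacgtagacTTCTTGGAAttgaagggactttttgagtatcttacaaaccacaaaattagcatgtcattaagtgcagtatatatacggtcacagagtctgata
Csn1s1: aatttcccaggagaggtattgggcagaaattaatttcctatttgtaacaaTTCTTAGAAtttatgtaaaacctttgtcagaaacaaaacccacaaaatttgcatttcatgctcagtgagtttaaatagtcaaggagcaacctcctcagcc
Csn1s2a: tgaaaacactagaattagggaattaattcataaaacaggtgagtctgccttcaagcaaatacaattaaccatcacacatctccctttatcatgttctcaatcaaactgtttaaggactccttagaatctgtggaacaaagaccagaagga
Lalba: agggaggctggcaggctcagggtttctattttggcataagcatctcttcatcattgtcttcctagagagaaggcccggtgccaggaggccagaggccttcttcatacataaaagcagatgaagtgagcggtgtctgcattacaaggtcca
Csn2 held the motif at -93 to -85 and Csn1s1 at -100 to -92 from the start site. The windows of Csn1s2a and Lalba held no match, so the motif did not separate the genes that were low in replicate 2 from the gene that was not. Of the 9 milk genes 6 had an entry in the table and 2 of these held the motif, against 7.02% of all 32851 promoters over the 250 bases before the start site.

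Of the stromal genes 1 of 59 with a mean of at least 5 FPKM was 2-fold apart, near the 2.58% of all genes. Col3a1, a fibrillar collagen, stood at 727, 621 and 637 FPKM, Sparc, a matrix glycoprotein, at 646.2, 634 and 586 FPKM and Dcn, the proteoglycan decorin, at 336, 378 and 418 FPKM. The 24 fibroblast and matrix genes had a median of 94.2, 99.8 and 87.4 FPKM and a median deviation of 0.04, -0.01 and -0.07 on the log2 scale. None of them was 2-fold apart between samples, and the same held for the 17 endothelial and 6 pericyte genes with a mean of at least 5 FPKM. Of the endothelial genes, Plvap, a protein of vessel fenestrae, was at 71.5, 77.6 and 69.8 FPKM, Gpihbp1, which carries lipoprotein lipase across capillary walls, at 59.7, 52.8 and 63.1 FPKM, Pecam1, an adhesion molecule of endothelium, at 53.7, 52.8 and 64.5 FPKM and Egfl7, secreted by endothelium, at 50.4, 52.7 and 45.6 FPKM. Mcam, Rgs5, Pdgfrb and Cspg4, which mark pericytes, stood at 49.3, 69.8 and 39.9, at 27.7, 25.2 and 40.0, at 14.9, 14.8 and 14.4 and at 7.70, 9.97 and 9.71 FPKM. Acta2, Tagln and Myl9, contractile proteins of smooth muscle and basal cells, lay at 150.4, 97.2 and 145 FPKM, 126, 91.9 and 113 FPKM and 84.2, 59.3 and 72.1 FPKM, with replicate 2 the lowest in each, and Smtn, a further protein of smooth muscle, at 26.3, 20.2 and 20.0 FPKM. Lymphatic endothelium was weakly represented, with Lyve1 at 15.2, 20.9 and 12.8 FPKM, Pdpn at 6.67, 7.36 and 7.95 FPKM and Flt4 at 2.13, 1.92 and 2.36 FPKM, while Reln and Prox1, the transcription factor that defines these cells, were under 1 FPKM in all 3.

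**Figure D2:**
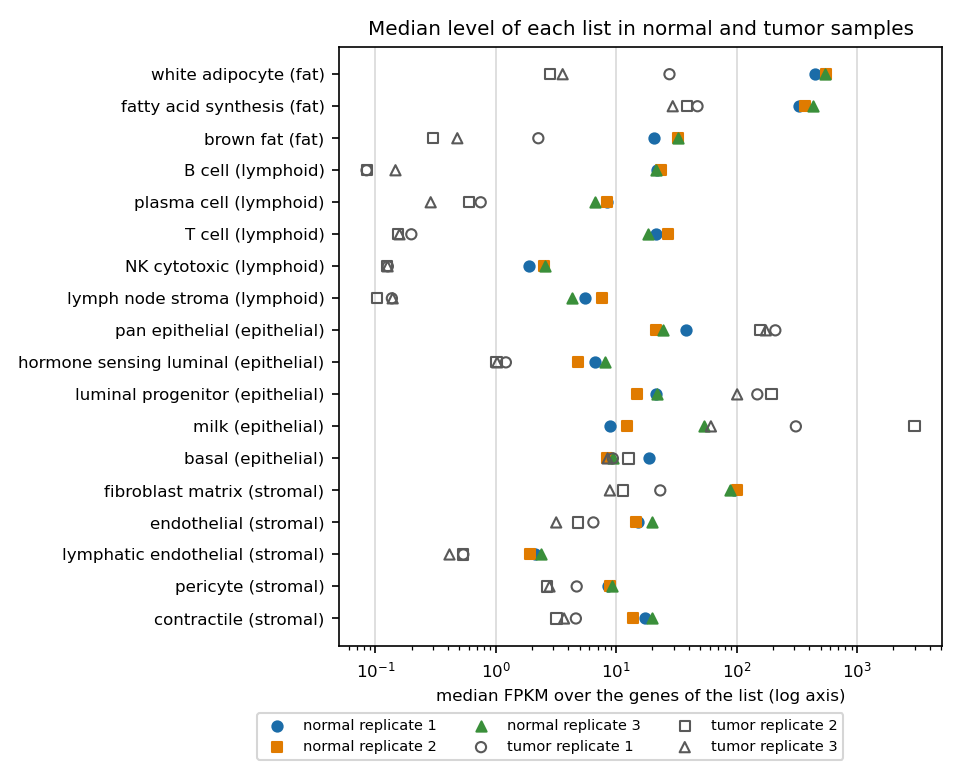
Median FPKM over the genes of each list on a log axis, with filled symbols for the 3 normal replicates and open symbols for the 3 tumor replicates. In normal tissue the fat lists for white adipocytes and fatty acid synthesis lie highest, the B and T cell lists lie near 20 FPKM, and of the 18 lists the milk list has the widest spread of normal values on the log axis.

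The median FPKM over all members of a component was 304 ± 52.6 (SD, n = 3) for fat, 22.005 ± 1.20 (SD, n = 3) for stroma, 15.2 ± 3.19 (SD, n = 3) for lymphoid genes and 14.8 ± 3.13 (SD, n = 3) for epithelial genes. Fat was above the others in every sample, and the stromal median exceeded the lymphoid and epithelial medians in each. The lymphoid and epithelial medians did not differ beyond their spread.

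Other cells of the fat pad were present too. Lyz2, the lysozyme of macrophages, reached 581, 658 and 631 FPKM, and C1qa, C1qb and C1qc, the complement chains made by tissue macrophages, 223, 266 and 173 FPKM, 124, 135 and 98.9 FPKM and 136, 147 and 112 FPKM. All 19 macrophage genes reached 1 FPKM in every sample. Cd74, the invariant chain of MHC class II, stood at 1389.6, 1883 and 1364 FPKM in a row shared with Mir5107, with H2-Aa at 256, 379 and 237 FPKM, H2-Ab1 at 245, 322 and 235 FPKM and H2-DMb1, in a row shared with H2-DMb2, at 66.1, 79.9 and 56.0 FPKM. Replicate 2 was the highest in each of these MHC class II genes, as in most lymphoid genes. The mast cell proteases Mcpt4, Cma1, Tpsb2 and Cpa3 lay at 75.0, 84.0 and 62.9 FPKM, 45.1, 44.2 and 31.1 FPKM, 31.3, 43.9 and 30.1 FPKM and 21.5, 30.3 and 23.9 FPKM, whereas Ms4a2, Fcer1a and Mrgprb1, receptors of mast cells, were under 1 FPKM. Neutrophil genes were low, with S100a9 at 2.89, 7.67 and 8.32 FPKM and S100a8 at 2.49, 4.38 and 8.39 FPKM, Retnlg and Elane near 1 FPKM and Ly6g listed at 0. Of the list of Schwann cell genes, Pmp22 was at 82.6, 91.8 and 85.2 FPKM and Cnp at 40.3, 45.0 and 37.1 FPKM. Mbp was at 30.7, 28.3 and 31.3 FPKM, and Mag and Pmp2 were under 1 FPKM. Sox10, at 24.5, 11.4 and 17.7 FPKM, had the same order of replicates as the pan-epithelial median of 38.0, 21.2 and 24.7 FPKM. Which cells made these messages was not tested. The hemoglobin rows stood at 351, 426 and 282 FPKM for Hba-a1 with Hba-a2 and at 193, 114 and 120.0 FPKM for Hbb-b1 with Hbb-bs, near-identical genes whose parts are uncertain, with Hbb-b2 at 30.3, 17.5 and 17.7 FPKM and Alas2, the enzyme of heme synthesis in red cells, at 6.57, 2.49 and 4.02 FPKM. Slc4a1, the anion exchanger of red cells, was under 1 FPKM in all 3 samples.

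Genes of skeletal muscle and of skin stood apart in single samples. In replicate 1 several genes of fast skeletal muscle were high, with Acta1, the actin of skeletal muscle, at 26.8, 3.24 and 2.46 FPKM, Mylpf, a fast myosin light chain, at 18.4, 7.28 and 5.30 FPKM and Tnnc2, fast troponin C, at 13.8, 1.37 and 0.314 FPKM. Other genes of the muscle list were level between the samples, as Myl1 at 25.2, 27.2 and 28.1 FPKM and Eno3 at 23.0, 23.6 and 17.7 FPKM. The median deviation of the muscle list was 2.18, -0.47 and -0.91 on the log2 scale, and Myh7, the myosin of slow muscle and heart, was listed at 0 in all 3. In replicate 2 the genes of cornified skin stood out, with Lor, the main protein of the cornified envelope, at 0.268, 15.8 and 0.319 FPKM, Krt10 at 3.34, 18.4 and 2.0996 FPKM and Krt77 at 0.131, 7.70 and 0.0556 FPKM. In replicate 1 it was instead the genes of the hair follicle sheath, Krt71 at 7.11, 0.183 and 0.114 FPKM and Krt25 at 5.598, 0 and 0.104 FPKM, whereas Sbsn, suprabasin, was more even at 25.7, 31.1 and 17.4 FPKM. These sums are small, at 0.0349, 0.0125 and 0.0121% of summed FPKM for the 23 muscle genes and 0.00890, 0.0142 and 0.00423% for the 12 skin genes.

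Genes of dividing cells differed between samples as well. Ube2c, which marks mitotic proteins for degradation, was at 24.8, 16.6 and 6.99 FPKM and Birc5, survivin, at 18.9, 8.07 and 5.59 FPKM, highest in replicate 1 and lowest in replicate 3. Pcna, the sliding clamp of DNA replication, was level at 64.1, 69.1 and 63.8 FPKM, and Mcm5, of the replicative helicase, stood at 13.9, 13.4 and 9.93 FPKM. Of the 20 proliferation genes with a mean of at least 1 FPKM, 17 were highest in replicate 1 and 18 lowest in replicate 3.

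The immediate early and stress genes Zfp36, Junb, Ier2 and Btg2 lay at 53.1, 64.6 and 55.0, at 51.0, 56.9 and 43.5, at 48.9, 57.4 and 36.2 and at 35.2, 41.3 and 33.7 FPKM. Of the clock genes, Dbp stood at 99.4, 136 and 80.1 FPKM, Nr1d1 at 54.5, 56.4 and 51.8 FPKM, Tef at 41.7, 55.0 and 45.4 FPKM and Bhlhe41 at 44.2, 37.5 and 42.5 FPKM, and Arntl, whose level runs opposite to that of Dbp and Nr1d1 over the day, at 2.41, 1.80 and 4.15 FPKM. Npas2 was under 1 FPKM. The interferon-induced genes Bst2, Irf7 and Isg15 were at 78.7, 99.4 and 74.0, at 23.2, 22.6 and 17.9 and at 12.7, 9.85 and 7.03 FPKM. Of the genes of these lists with a mean of at least 5 FPKM, 1 of 12 immediate early genes, 0 of 8 clock genes and 0 of 5 interferon genes were 2-fold apart.

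**Figure D3:**
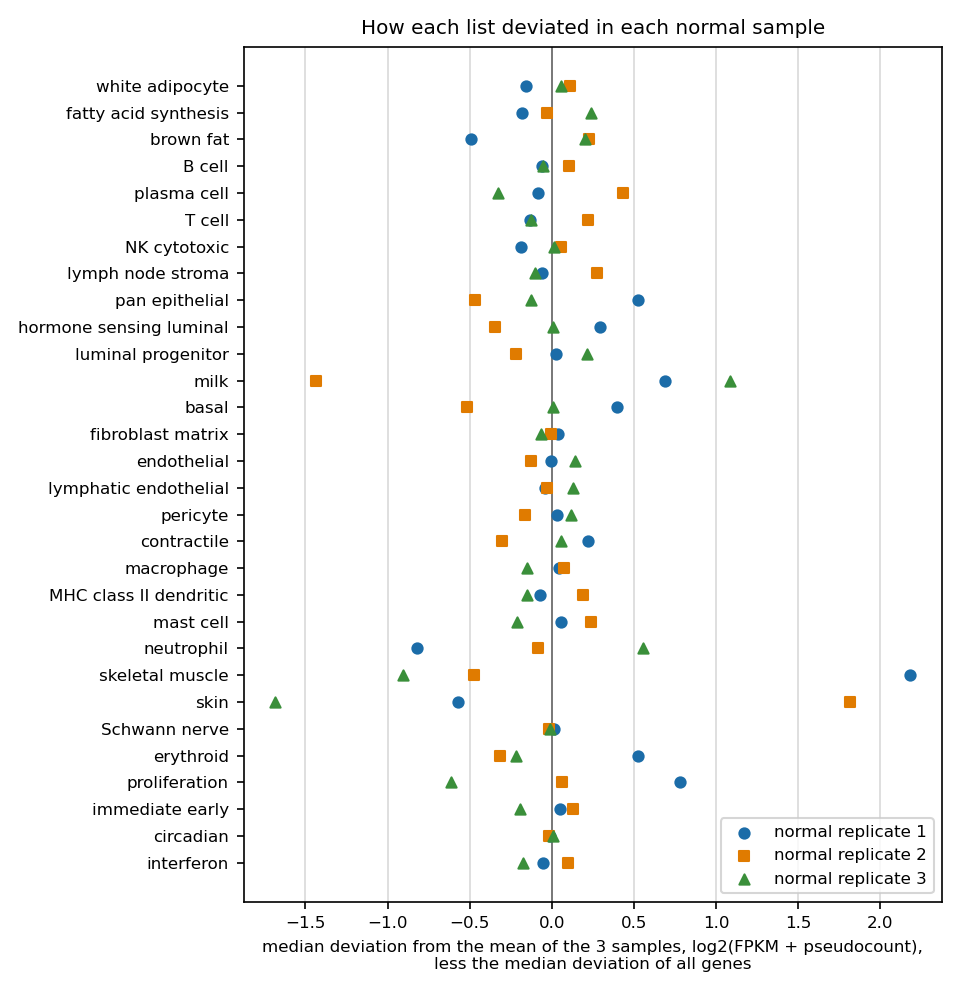
Median deviation of each list from the mean of the 3 normal samples on the log2(FPKM + pseudocount) scale, less the median deviation of all genes, with 1 point per normal replicate. Replicate 1 lies high for the skeletal muscle, pan-epithelial and proliferation lists, replicate 2 lies high for skin and low for milk, and the fibroblast, endothelial and Schwann lists lie near 0 in all 3.

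Among the 9324 genes with a mean of at least 5 FPKM, the highest of the 3 normal samples was at the median 1.24 times the lowest, and 241 genes, 2.58%, were at least 2-fold apart. The number fell to 108 without replicate 1, to 100 without replicate 2 and to 140 without replicate 3, since a pair of samples spans a smaller range. Those at least 2-fold apart were 18 of 44 epithelial genes, 6 of 46 fat genes, 3 of 45 lymphoid genes and 1 of 59 stromal genes. By list, 5 of 6 milk genes, 8 of 18 pan-epithelial genes, 6 of 8 skeletal muscle genes and 7 of 11 proliferation genes were 2-fold apart, and all 6 such fat genes were brown fat genes. No test stands behind these counts, since each pool gave a single library.

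Genes of short RNAs made up 19 of the 30 genes with the largest SD on the log2 scale, and 23 of 32 such genes were at least 2-fold apart. Mir7115 at 351, 0 and 0 FPKM, Mir6972 at 0, 183 and 0 FPKM and Snora61 at 0, 0 and 144 FPKM are examples in which a single sample held all the signal. Of the 19 genes 18 were listed at 0 in at least 1 sample, and such a 0 may be an estimate that failed. Without them, a choice made after seeing the data, 218 of 9292 genes were 2-fold apart, of which 115 were highest in replicate 1, 70 in replicate 2 and 33 in replicate 3. Of these, 24 were at least 4-fold apart.

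The other 11 of the 30 most variable genes fell mostly into the groups described above. They were the skin genes Lor and Krt10, the fast muscle genes Tnnc2, Ckm, Tnnt3, Acta1 and Tnni2, the milk genes Csn1s2a, Csn2 and Lalba, and Rasl10a. Ckm, the creatine kinase of muscle, lay at 16.1, 1.25 and 1.04 FPKM, Tnnt3 at 15.8, 1.65 and 1.60 FPKM and Tnni2 at 14.3, 2.27 and 2.18 FPKM, with replicate 1 above the others in each. Rasl10a, a small GTPase of the Ras family on no list, lay at 30.01, 2.197 and 32.0 FPKM and so was low in replicate 2 like the caseins. The following genes were chosen after their values were seen. Muc15, a membrane mucin also known from milk fat globules, had the same order of a low replicate 2 at 23.7, 5.01 and 26.3 FPKM. Krt15, a keratin of basal cells, was highest in replicate 1 at 42.0, 11.1 and 9.99 FPKM, as was Rspo1, a secreted enhancer of Wnt signalling, at 23.1, 4.77 and 10.3 FPKM, and Wfdc18, a secreted protein of mammary epithelium, at 399.5, 113 and 172 FPKM. Acyp1, an acylphosphatase, went the other way at 30.8, 114 and 25.1 FPKM, with replicate 2 above the others. Of the 100 most variable genes without short RNAs 73 were on no list.

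**Figure D4:**
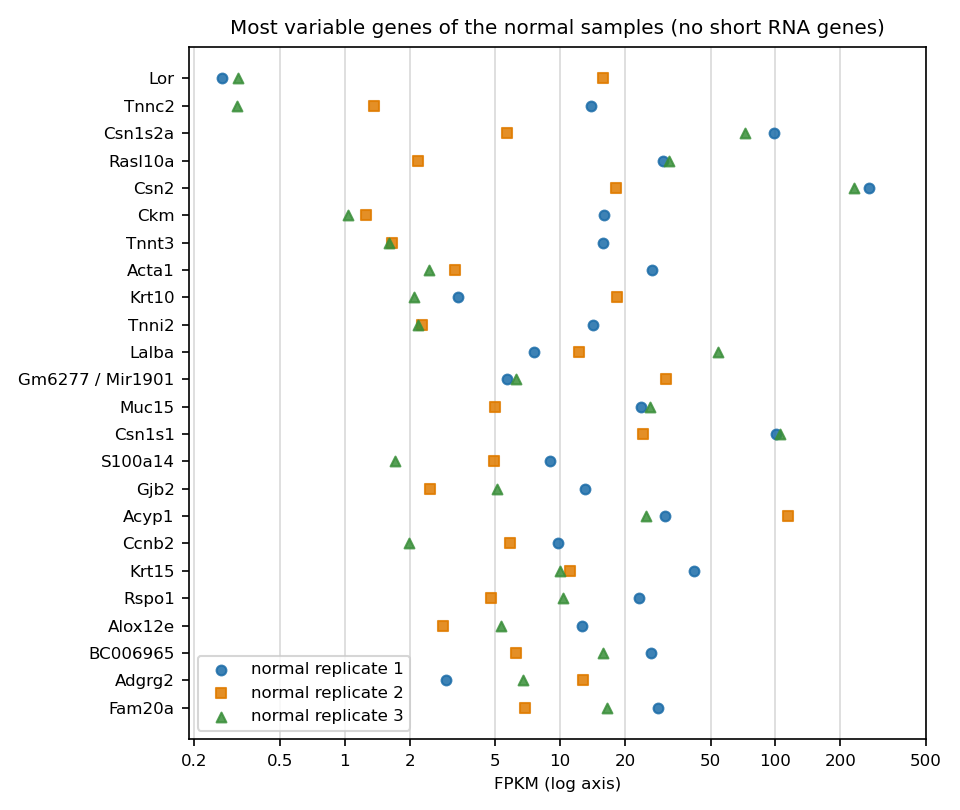
FPKM on a log axis of the 24 genes that varied most between the normal samples, short RNA genes left out, with 1 point per normal replicate and genes ordered by the SD of log2(FPKM + pseudocount). The muscle genes Tnnc2, Ckm, Tnnt3, Acta1 and Tnni2 have replicate 1 to the right, the caseins and Rasl10a have replicate 2 to the left, and Lor, Krt10 and Acyp1 have replicate 2 to the right.

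The comparison with untreated tumors shows where the normal profile differs from that of the transformed gland. Genes entered the test when 3 or more of the 6 samples held 1 FPKM or more, and of these 13031 genes 28.8% were higher and 31.7% lower in tumor (limma on log2(FPKM + 0.03125), Benjamini-Hochberg adjusted p under 0.05), so a call in itself is common. The fat component had 48 of 52 genes lower and 1 higher in tumor, with 1 not called and 2 not tested for low values. The lymphoid component had 59 of 63 lower and 1 higher, with 2 not called and 1 not tested, and the stromal component 55 of 66 lower and 3 higher, with 6 not called and 2 not tested. The epithelial component went the other way, with 33 of 59 higher and 10 lower in tumor, 13 not called and 3 not tested. A gene counted as passing the filter through normal tissue alone had at least 1 FPKM in all 3 normal samples and in no tumor. Such genes had to be lower in tumor. They were 51 of the 62 lymphoid genes tested, 5 of 50 fat, 4 of 56 epithelial and 2 of 64 stromal genes. Lep and Foxa1, with 1 tumor above 1 FPKM, are not among them, although their tumor values alone would not have passed. Passing through the tumor level alone was defined with the groups exchanged, and leaves out Wap, with 1 normal sample above 1 FPKM. The median log2 difference over all members, tumor less normal, was -4.64 for fat, -6.11 for lymphoid, 2.11 for epithelial and -2.21 for stromal genes, against -0.02 over all genes tested. All log2 differences are on the log2(FPKM + 0.03125) scale, tumor less normal, which understates the change of the lowest genes, and p-values measure the spread between 3 pools and 3 single mice.

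In the fat component 23 of 24 white adipocyte genes, 11 of 12 genes of fatty acid synthesis and 14 of 16 brown fat genes were lower in tumor, 5 of the latter having passed the filter through normal tissue alone. Fabp4 was at 1080.2, 81.7 and 82.3 FPKM in the tumors, a log2 difference of -6.35 (SE 0.94, adjusted p = 0.00103 in limma). Plin1 was at 15.5, 0.119 and 1.40 FPKM, with a difference of -8.38 (SE 1.45, adjusted p = 0.00200 in limma), and Lep at 2.30, 0 and 0.0596 FPKM, with -8.55 (SE 1.40, adjusted p = 0.00159 in limma). No tumor reached the lowest normal sample of any of these genes, and tumor replicate 1 held more of each than the other tumors. Ucp1 lay at 33.1, 0 and 1.64 FPKM in the tumors, a difference of -9.00 (SE 2.18, adjusted p = 0.00933 in limma). The exceptions were G0s2, an inhibitor of lipolysis, which was not called at 476, 313 and 194 FPKM against 136, 243 and 214 FPKM in normal tissue (difference 0.68, adjusted p = 0.139 in limma), and Srebf1, which was higher in tumor at 476, 202 and 271 FPKM, a difference of 1.37 (SE 0.30, adjusted p = 0.00568 in limma). Without tumor replicate 3, 2 fat genes were called higher.

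In the lymphoid component all 18 B cell genes and all 24 T cell genes were lower in tumor, as were 9 of 10 genes of natural killer and cytotoxic cells. Of these, 16 B cell, 20 T cell and 8 natural killer and cytotoxic genes passed the filter through normal tissue alone, so the filter fixed their direction. Ms4a1 was listed at 0 in all 3 tumors, against at least 24.4 FPKM in normal tissue. Cd8b1, which also passed the filter through normal tissue alone, was at 0.109, 0 and 0 FPKM, with a log2 difference of -9.33 (SE 0.61). Every normal sample was far above every tumor in both genes. Derl3, a gene of protein degradation in the endoplasmic reticulum that plasma cells use, was the single lymphoid gene higher in tumor, at 29.0, 8.34 and 51.1 FPKM and a difference of 3.79 (SE 0.60, adjusted p = 0.00135 in limma). Glycam1 was not called, with tumor replicate 2 above all normal samples at 33.3, 2570.0 and 2.71 FPKM (difference -4.12, adjusted p = 0.135 in limma). That tumor also had the highest Csn2, Csn1s1, Csn1s2a and Wap of the 6 samples. Gzmb, a protease of cytotoxic granules, was the other gene not called, at 1.25, 1.72 and 1.502 FPKM in normal tissue and 1.46, 0.705 and 0.956 FPKM in tumor. Of the lymph node stroma list 5 of 6 genes were lower in tumor, and of the plasma cell list 3 of 5, where 5 and 2 genes passed the filter through normal tissue alone.

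Within the epithelial component the lists parted. Of the pan-epithelial genes 18 of 19 were higher in tumor, and Krt19 was not called, at 259.7, 199 and 174 FPKM against 269.9, 118 and 150.003 FPKM in normal tissue. Of the hormone-sensing genes 7 of 13 were lower and 3 higher. In this list 3 genes passed the filter through normal tissue alone, among them Calca and Tnfsf11, so the filter fixed their direction. Calca was at 0, 0.642 and 0 FPKM in the tumors, a difference of -7.57 (SE 1.15). Tnfsf11, the cytokine RANKL that acts downstream of progesterone, fell to 0, 0.0490 and 0 FPKM from 4.13, 2.85 and 3.69 FPKM, a difference of -6.37 (SE 0.55). Foxa1, a partner of the estrogen receptor, fell to 1.21, 0.0727 and 0.312 FPKM from 11.2, 6.27 and 11.2 FPKM, a difference of -4.71 (SE 0.82, adjusted p = 0.00214 in limma). In these 3 genes the normal samples were all above the tumors, which the filter fixed for Calca and Tnfsf11. They were named for the largest called differences of the component, and the 3 hormone-sensing genes higher in tumor are not named here. Of the luminal progenitor list 4 of 6 were higher in tumor and 1 lower, and of the basal list 4 of 12 higher and 2 lower. In the basal list 1 gene passed the filter through normal tissue alone.

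Milk genes were more abundant in tumor than in normal gland where they were called, 4 of 8 tested, of which 1 passed the filter through its tumor level alone. Csn3 reached 9136, 12483 and 15346 FPKM in the tumors, a difference of 6.29 (SE 0.32, adjusted p = 2.09e-05 in limma), and Lalba 2596, 2651 and 1290.4 FPKM, a difference of 6.92 (SE 0.69, adjusted p = 0.000175 in limma). Wap reached 527, 2999 and 235 FPKM, a difference of 10.70 (SE 1.66, adjusted p = 0.00123 in limma), against 2.62, 0 and 0.950 FPKM in normal tissue. All tumors were above all normal samples in these 3 genes. Csn2, Csn1s1 and Csn1s2a, the genes that were low in normal replicate 2, were also uneven between the tumors, at 580.4, 9504 and 115 FPKM for Csn2, and were not called (adjusted p = 0.155, 0.131 and 0.229 in limma).

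In the stromal component 22 of 24 fibroblast and matrix genes, 17 of 18 endothelial genes, 3 of 5 lymphatic endothelial genes, 5 of 8 pericyte genes and 8 of 11 contractile genes were lower in tumor. Of these lists, 1 lymphatic endothelial and 1 pericyte gene passed the filter through normal tissue alone. Gsn, given above for normal tissue, was at 94.0, 21.8 and 34.1 FPKM in the tumors, a difference of -5.62 (SE 0.50, adjusted p = 0.000108 in limma), Dpt, a matrix protein of dermis and fat, at 14.5, 8.002 and 3.24 FPKM against 273, 367 and 270.0 FPKM in normal tissue, a difference of -5.37 (SE 0.49, adjusted p = 0.000118 in limma), and Igf1, the growth factor made by adipocytes and fibroblasts, at 1.91, 1.33 and 0.863 FPKM against 35.5, 36.4 and 33.8 FPKM, a difference of -4.73 (SE 0.28, adjusted p = 2.65e-05 in limma). The 3 stromal genes higher in tumor were Mgp, Smtn and Des. Mgp, an inhibitor of calcification, was higher in tumor at 408, 141 and 199.6 FPKM against 96.3, 101 and 88.5 FPKM in normal tissue, a difference of 1.24 (SE 0.36, adjusted p = 0.0190 in limma), but lost its call without normal replicate 1 (difference 1.25) or 3 (1.19). Smtn was higher at 62.3, 27.0 and 41.5 FPKM, a difference of 0.91 (SE 0.30, adjusted p = 0.0319 in limma), and lost its call without normal replicate 2 (difference 0.85) or 3 (0.84) or tumor replicate 1 (0.61) or 3 (0.90). Des, the desmin of muscle cells of every kind, was higher at 82.5, 106 and 50.5 FPKM against 18.8, 27.3 and 20.3 FPKM, a difference of 1.80 (SE 0.29, adjusted p = 0.00135 in limma). The summed FPKM of the 23 skeletal muscle genes was 7750.4, 4008 and 2599 in the tumors and 183, 76.3 and 65.7 in normal tissue, and its part in the difference of Des was not tested.

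**Figure D5:**
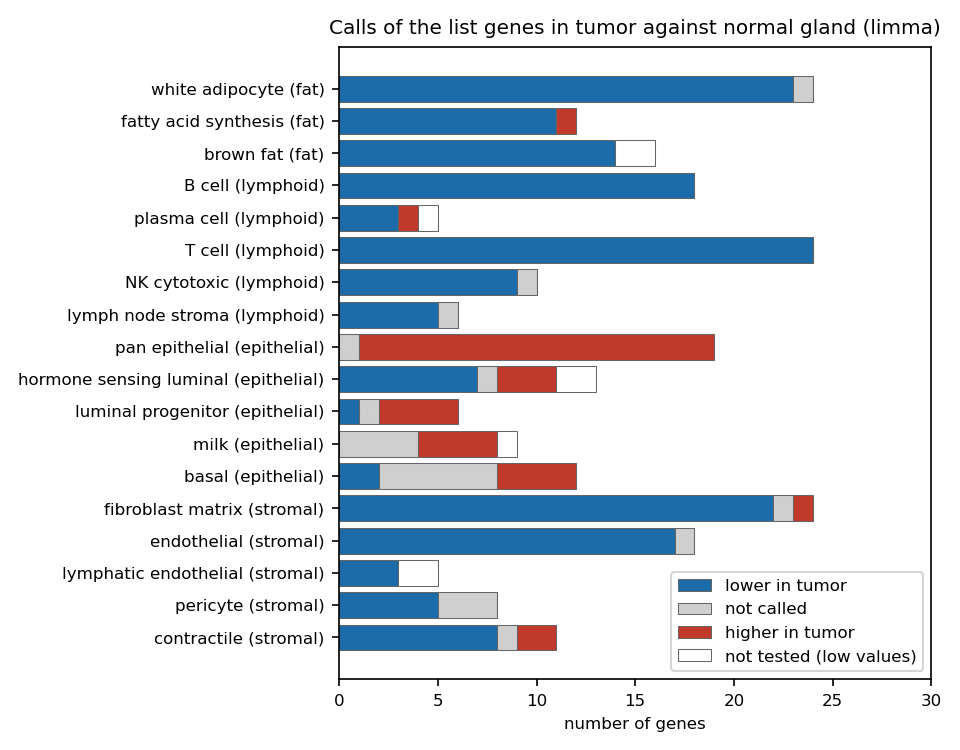
Number of genes of each list that were lower, higher or not called in tumor against normal gland (limma, adjusted p under 0.05), or not tested for low values. The fat, lymphoid and stromal lists are mostly lower in tumor, the pan-epithelial list is higher in 18 of 19 genes, and the hormone-sensing and basal lists are split.

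The counts for the other lists are given over the genes tested, of which 28.8% were higher and 31.7% lower in tumor over all genes. Lower in tumor were 16 of 17 genes of MHC class II and dendritic cells and 10 of 19 of macrophages. So were 5 of 5 mast cell, 6 of 10 Schwann cell and 1 of 4 red cell genes. Higher in tumor were 20 of 20 skeletal muscle genes, 21 of 21 proliferation genes and 1 of 4 skin genes. So were 2 of 19 macrophage, 2 of 10 Schwann cell and 1 of 3 neutrophil genes. The immediate early list had 9 of 14 higher and 3 lower, and the clock list 1 of 12 higher and 6 lower. The interferon list, with 3 of 13 higher and 3 lower, was near the shares of all genes. Through normal tissue alone, the filter was passed by 5 MHC class II and dendritic, 2 macrophage, 1 mast cell, 1 Schwann cell and 1 interferon gene. A further Schwann cell gene passed through its tumor level alone, and the filter fixed the direction of all these genes. All 20 skeletal muscle genes that were tested were higher in tumor, of which 4 passed the filter through their tumor level alone and so had to be higher, and the lowest summed FPKM of that list in a tumor was far above that of normal replicate 1, the highest of the normal samples. The part of muscle message in the other calls was not tested.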

How the data were processed

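RNA-seq was made by the authors from 20 mg of tissue per sample with poly-A selection and a non-directional library kit, so reads of overlapping or antisense genes cannot be told apart. Per the study's methods and the submitters' processing notes, reads were trimmed, aligned to mm10 with TopHat2 2.1.1 and summarised with Cufflinks 2.2.1, and the deposited values are the authors' FPKM per gene, with 1 file per sample. These values are not counts, and the reads behind each file are not given with them.

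The 3 normal and 3 untreated tumor files were used, and those of DMSO- and C646-treated tumors, which have other rows, were not. Rows with no gene name (1837 of 26220, between 3.41 and 4.56% of summed FPKM in normal samples) were dropped and repeated names were summed. The 506 rows that join several gene names were kept, and a value of such a row belongs to all its names. Of 416 list entries, 392 had a row of their own, 12 a joined row and 2 a newer symbol, 5 repeated a row and 5 (Ccl21a, Ccl21b, Flg, Hbb-bt and Ahsp) were not found. Tumor was compared with normal by limma 3.58.1 (R 4.3.3) with a variance trend on log2(FPKM + 0.03125), over genes that reached 1 FPKM in 3 or more of the 6 samples, and p-values were adjusted by Benjamini-Hochberg with a threshold of 0.05. The spread between normal samples was described with Python 3.11.15 and pandas 2.3.3 over genes with a mean of at least 5 FPKM, with no test. The code was tested on simulated data. Promoters (GRCm38.p6) and gene coordinates came from RefSeq.

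The genes named were the 25 most abundant, the 4 highest of each list with defining markers under 1 FPKM, the 30 most variable, and the 3 largest changes per direction and component. Adipoq, Plin1 and Lep in normal tissue, Aqp7, Lhx8, Prdm16, Ppargc1a, Epcam, Cd4, Esr1, Pgr, Krt71, Krt25, Arntl, G0s2 and Gzmb were named after their values were seen. Some genes that the rule picks are not reported here. The lists and genes were chosen with earlier results of these data known. The alternatives were other pseudocounts, filters and scalings, no variance trend, the highest row of a repeated name, leaving out each replicate, and a model that took the replicate number as a blocking factor.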

Additional observations from a re-analysis of the deposited data

How the results depend on the processing

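The 20 genes picked by rule for their tumor difference kept their direction in all 280 values recomputed over the alternatives run, and 274 of these also kept their side of the threshold. The other 6 were Mgp and Smtn without single libraries, as given above. The 20 genes were picked as the largest called differences of these same data, which made a reversal unlikely from the start. Of 189 values recomputed for 18 counts, shares and levels, 178 stayed within the limits set for a change. When each replicate was left out in turn, the fat genes called higher in tumor numbered between 1 and 2, and the stromal genes called higher between 1 and 3. The number of genes at least 2-fold apart between normal samples was 760 with a minimum mean of 1 FPKM and 121 with 10 FPKM, against 241 with 5 FPKM, and it ranged from 100 to 140 with a normal replicate left out and was 218 without short RNA genes, the last chosen after seeing the data. With nameless rows kept in the total, the 10 most abundant genes held 9.29% and the 100 most abundant 29.5%. Over members with at least 1 FPKM in all 3 normal samples, the median was 18.1 FPKM for epithelial and 24.9 FPKM for stromal genes. Quantile normalization moved the median difference of all tested genes by 0.13 on the log2 scale and gave 4348 genes higher and 3640 lower in tumor, against 3758 and 4128 on the deposited values. With no filter on low values 60 lymphoid genes were lower in tumor.

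The replicate numbers of the labels did not pair the samples, with correlations of -0.04, -0.10 and 0.01 between the deviations of normal and tumor samples of the same number, and the fit with a replicate block called 3439 genes higher and 3827 lower. The files give no read counts, so the precision of low values could not be set.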
